A study of Homo sapiens and Mus musculus with 12 samples.

Results

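The cytosolic ribosomal protein genes were examined in mouse NK cells with a targeted deletion in the histone methyltransferase gene Ehmt2 and in human NK92MI cells treated with an EHMT2 inhibitor. Members were chosen by name, as the RPL, RPLP, RPS and RPSA genes of both count tables with at least 10 counts in at least 3 libraries, leaving out the RPS6 kinases and RPL10L. Among the mouse genes, 82 symbols matched and 80 passed the count minimum, 49 of the large and 31 of the small subunit, of 22021 genes listed. Rpl3l and Rpl39l did not pass. Among the human genes, 82 symbols matched and 81 passed, 50 of the large and 31 of the small subunit, of 18304 genes listed. RPL3L did not pass. The rule did not take in mouse Rps3a1, FAU or RACK1, of which the last 2 are described with the related lists.

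Ribosomes translate mRNA into protein. The small subunit reads the mRNA, and the large subunit joins the amino acids and lets the new chain leave through an exit tunnel. Each subunit holds ribosomal RNA and a set of proteins, and the mRNAs of these proteins are among the most abundant of most cells. Many of them start with a terminal oligopyrimidine (TOP) tract, a C followed by a run of C and T bases at the first transcribed base, through which mTOR and LARP1 control how well they are translated. Resting lymphocytes make few ribosomes and make more when they are activated.

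NK cells were sorted from mouse spleen. As the study describes its mice, WT and KO animals were both Ehmt2 flox/flox on a C57BL/6J background, and only KO animals carried Ncr1 iCre, so that deletion is limited to cells in which Ncr1, the NKp46 receptor gene, has been active. There were 3 libraries of each, from mice aged 8 to 12 weeks as the study's methods give for its animals. The genotype label of the KO samples names Ezh2, whereas their titles name EHMT2, and the titles were followed. NK92MI, an IL-2-independent human NK lymphoma line, was treated with the EHMT2 inhibitor BIX-01294 or with its solvent DMSO, with 3 libraries of each. The study treated NK92MI cells with 0.25 µM BIX-01294 for 5 days in its functional assays. The labels of these libraries give neither dose nor duration. The names of the human control columns, CON-1 to CON-3, match the DMSO group but no numbered sample, so DMSO values below are given from low to high. Nothing states that the libraries of a group came from separate animals or cultures, so the p-values measure the spread between these libraries, which may be technical.

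Library totals were 25891680 to 37438868 counts in mouse and 16579469 to 17165446 in human. The targeted gene Ehmt2 was counted at 137 to 171 CPM (counts scaled to a common library size) in KO and 275 to 285 CPM in WT NK cells (log2 fold change −0.91, adjusted p = 0.0162). EHMT2 lay between 35.8 and 40.4 CPM with BIX-01294 and between 54.3 and 61.6 CPM with DMSO (log2 fold change −0.58, adjusted p = 0.000101). All CPM values are scaled with TMM factors, all fold changes and adjusted p-values come from edgeR's quasi-likelihood test with Benjamini-Hochberg adjustment over 13189 mouse or 12727 human genes, and a gene is called at an adjusted p under 0.05 unless stated otherwise. Replicates varied with a biological coefficient of 18.2% in mouse and 7.55% in human.

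Start sites of members that the human results turn on are shown next, because most of the family starts with a TOP tract and 1 of the members shown, RPS27L, does not. They are printed from the RefSeq promoter table of GRCh38.p14, 15 bases before and 15 bases from the annotated start, on the transcribed strand, with the pyrimidine run from the first transcribed base in capitals. RPLP0 and RPS24 were lower with BIX-01294, RPL22L1, RPS27L and RPS9 were higher, and RPL22 and RPS27 are the paralogues of RPL22L1 and RPS27L.
RPLP0: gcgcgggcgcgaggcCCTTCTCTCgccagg
RPS24: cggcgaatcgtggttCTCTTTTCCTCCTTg
RPS9: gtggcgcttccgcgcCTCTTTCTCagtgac
RPL22: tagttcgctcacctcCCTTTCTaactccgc
RPL22L1: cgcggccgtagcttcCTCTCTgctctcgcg
RPS27: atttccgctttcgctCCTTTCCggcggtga
RPS27L: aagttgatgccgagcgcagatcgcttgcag

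These windows lie at chr12:120201097-120201126 (minus strand) for RPLP0, chr10:78033848-78033877 (plus) for RPS24, chr19:54200843-54200872 (plus) for RPS9, chr1:6199581-6199610 (minus) for RPL22, chr3:170870181-170870210 (minus) for RPL22L1, chr1:153990747-153990776 (plus) for RPS27 and chr15:63157463-63157492 (minus) for RPS27L. Each spans the upstream flank and the first bases of exon 1 at that start. RPS27L, unlike RPS27, had no C at its annotated start, and neither had RPS28 and RPL4, which were called lower and are not printed. Of the 81 human members, 66 had a start in the table, and 47 of these (71.2%) had at least 1 start with a C followed by at least 4 more pyrimidines (C or T), against 5.14% of the 27305 genes in that table. The tract was present in 10 of the 12 members with a start that were called lower with BIX-01294, in 2 of the 3 called higher and in 35 of the 51 not called.

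The members took a larger share of the counts in the mouse libraries than in the NK92MI libraries, which differ in species, annotation and cell source. In human, pseudogenes named for a member held from 0.0109% (RPL37) to 67.7% (RPS10) of the counts of gene and pseudogenes together. How much of the gap between the species comes from such differences in counting was not tested. In WT NK cells they made up 6.64%, 6.62% and 6.32% of all counts, and in KO NK cells 6.43%, 5.31% and 5.05%. KO replicate 1 thus lay inside the WT range and the other KO replicates below it. In NK92MI cells the shares were 2.75%, 3.0% and 3.22% with DMSO and 2.81%, 2.35% and 3.16% with BIX-01294, so these groups overlapped, and BIX replicate 2 was the lowest library. In bulk samples, fewer cells of a type and less RNA per cell cannot be told apart.

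**Figure D1:**
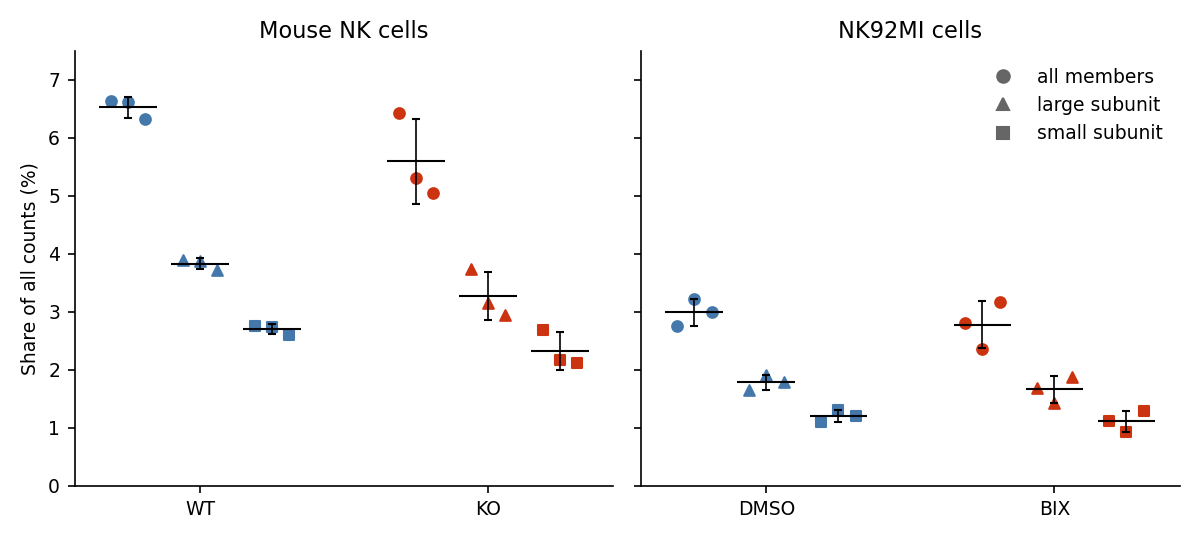
Share of all counts (percent, y axis) taken by all members, large and small subunit members in each library of mouse NK cells (WT, KO) and NK92MI cells (DMSO, BIX); bars give the mean ± SD, n = 3. In KO NK cells 1 library (6.43%) reached the WT level and the others lay at 5.31% and 5.05%, and in NK92MI cells the groups overlapped.

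The comparison of KO with WT NK cells asks whether loss of Ehmt2 was accompanied by another level of the translation machinery's mRNAs. The log2 fold change was below 0 for 76 of the 80 members, against 48.5% of all genes tested, but only 1 member, Rps19, was called. The median log2 fold change of the members was −0.21, against 0.01 over all genes tested. Among 264 other genes at or above the lowest quartile of the members' mean levels (454 CPM), the median was 0.09 and 37.9% were below 0. In the direction lower, 1 of 80 members was called, against 7.43% of all genes. In the direction higher, edgeR called 0 members, against 4.44% of all genes. DESeq2 and limma-voom likewise called 0 higher, against 8.33% and 4.67% of all genes. Higher at an unadjusted p under 0.05 were 0 members, against 15.8% of all genes. At an unadjusted p under 0.05, 18 members were lower, a share close to the 20% of all genes that were lower at that level. For 27 members (33.8%) all KO replicates lay below all WT replicates, against 19.3% of all genes.

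Rps19, a small subunit protein needed to mature the small subunit's ribosomal RNA and often mutated in Diamond-Blackfan anemia, lies on chromosome 7 of GRCm38 (24884371 to 24889806, plus strand). Its levels were 616, 603 and 601 CPM in WT and 513, 396 and 376 CPM in KO NK cells. The WT replicates lay close together, and every KO replicate was below them. The log2 fold change came to −0.50 (standard error 0.13, adjusted p = 0.0473), which made it the only call among the members. The call was lost at an adjusted p of 0.0502 with library totals only. It was also lost, at an adjusted p of up to 0.167, without KO replicate 2 or 3 or WT replicate 1 or 3. Its log2 fold change stayed between −0.51 and −0.42 in these fits. Of all genes, 0% were called lower without KO replicate 2 or 3, and 0.48% and 0.06% without WT replicate 1 or 3.

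Of the large subunit, Rplp0, which anchors the stalk that recruits elongation factors, had 2430, 2250 and 2400 CPM in WT and 2040, 1720 and 1650 CPM in KO NK cells (log2 fold change −0.39, adjusted p = 0.0713). The groups did not overlap, yet the difference did not pass the edgeR test. It passed with DESeq2 (adjusted p = 0.0045) and without KO replicate 1 (edgeR, adjusted p = 0.0359). Its stalk partners Rplp1 (log2 fold change −0.18) and Rplp2 (−0.16) overlapped between groups. Rpl4, whose protein lines the exit tunnel, had 2130, 2110 and 2110 CPM in WT and 1840, 1650 and 1570 CPM in KO NK cells (log2 fold change −0.33, adjusted p = 0.0794). Rpl35 (−0.44, adjusted p = 0.10) and Rpl31 (−0.42, adjusted p = 0.103), both near the end of the exit tunnel, also had every KO replicate below every WT replicate. Both share exonic bases with other annotated genes (66.2% and 25.3%), and 0% with genes on the same strand. Their counts may be incomplete, depending on the strand setting of the counting, which is not given. DESeq2 called both (adjusted p = 0.0315 and 0.0365), as it did Rpl4 (adjusted p = 0.00466), and without KO replicate 1 edgeR called Rpl35 (adjusted p = 0.0384) and Rpl4 (adjusted p = 0.0437). Rpl3 and Rpl10, close to the peptidyl transferase centre, had log2 fold changes of −0.22 and −0.14, and Rpl5 and Rpl11, which with the smallest ribosomal RNA form a particle that can bind Mdm2, had −0.16 and −0.17. None of these 4 passed the edgeR test, and DESeq2 called Rpl3 (adjusted p = 0.0472). Rpl38 was at −0.02, with overlapping groups.

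In the small subunit, Rps26, located at the mRNA exit, had 1220, 1180 and 1120 CPM in WT and 1020, 918 and 783 CPM in KO NK cells (log2 fold change −0.38, adjusted p = 0.0729). Rpsa, the most counted member, had 3310, 3280 and 3110 CPM in WT and 3060, 2570 and 2460 CPM in KO NK cells (−0.26, adjusted p = 0.180). In both genes the KO replicates lay below the WT replicates without passing the edgeR test. Rps26 was called by DESeq2 (adjusted p = 0.0106) and by edgeR without KO replicate 1 (adjusted p = 0.0418). Rps6, the substrate of the S6 kinases, had a log2 fold change of −0.23, Rps25, used in internal initiation, −0.35, and Rps3, at the mRNA entry, −0.10, all with overlapping groups. Rps10 (−0.21) and Rps27a (−0.21), which is made as a fusion with ubiquitin, also overlapped. Without KO replicate 1, Rps25 (adjusted p = 0.0384) and Rps27a (adjusted p = 0.0449) were called lower.

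Few members were above 0. Rps23, in the decoding centre, had a log2 fold change of 0.01 (below 0 when libraries were scaled to the pan-NK markers, which moved the median of all genes to −0.82). Rpl30 had 0.24 (adjusted p = 0.398), with 595, 354 and 539 CPM in WT and 656, 536 and 564 CPM in KO NK cells. WT replicate 2 was lower than every other library, and without it the log2 fold change was 0.05. Rpl24 (0.24) was counted at 0.215 to 0.544 CPM only, and 47.0% of its exonic bases are shared with the gene Gm28037, so its value says little about the gene. Rpl6l (0.05) was counted at 1.59 to 2.02 CPM.

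The paralogues, some of which can stand in for their partners in the ribosome, were counted at low levels in mouse NK cells. Rpl22l1 made up 10.8% to 12.3% of the counts of the pair Rpl22l1 and Rpl22 in WT and 12.1% to 12.9% in KO NK cells, so the groups overlapped. Rps27l made up 1.55% to 1.92% and 1.60% to 1.83% of the pair with Rps27. The log2 fold changes were −0.10 for Rpl22l1, −0.23 for Rpl22, −0.20 for Rps27l, −0.17 for Rps27, −0.10 for Rpl7l1 and −0.14 for Rpl7, and none passed the test, while Rpl22 (adjusted p = 0.0378) and Rps27 (adjusted p = 0.0456) did without KO replicate 1.

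The medians of the subunits lay close together in mouse. The median log2 fold change was −0.22 over 49 large subunit members and −0.21 over 31 small subunit members. The log2 ratio of summed large to summed small subunit counts was 0.50, 0.50 and 0.52 in WT and 0.48, 0.55 and 0.48 in KO NK cells. WT lay inside the KO range.

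How many mouse members were called lower turned on single libraries, and so did the calls over all genes. KO replicate 1 had the highest level among the KO replicates for 78 of 80 members, and KO replicate 3 the lowest of all 6 libraries for 61. Without KO replicate 1, 24 members (30%) were called lower, against 9.96% of all genes in that fit. Without KO replicate 2, KO replicate 3, WT replicate 1 or WT replicate 3, edgeR called none lower (0 of 80). Without KO replicate 2 or 3, edgeR called 0 of all genes. Without WT replicate 1 or 3, it called 0.48% and 0.06% of all genes lower. Leaving out WT replicate 2 gave 1 member (1.25%) called lower, against 15.6% of all genes in that fit. The median stayed below 0, from −0.33 without KO replicate 1 to −0.15 without KO replicate 3. DESeq2 called 15 members (18.8%) lower, against 15.1% of all genes.

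Most markers of other spleen cells had log2 fold changes below 0 in KO NK cells, like the members. The 8 B cell markers summed to 547 to 1600 CPM in WT and 91.0 to 509 CPM in KO NK cells, and KO replicate 1 held the 509 CPM, against 109 and 91.0 CPM in the other KO replicates. All 8 were below 0, and none was called. The 10 macrophage markers summed to 2630 to 6900 CPM in WT and 1400 to 2560 CPM in KO NK cells, all below 0 and 6 called lower. The erythroid (8 of 8, all called), platelet (5 of 5, 0 called by edgeR) and pancreatic acinar (10 of 10, all called) markers were below 0, too, with sums of 280 to 450, 1640 to 2610 and 265 to 1580 CPM in WT and 122 to 150, 1310 to 1450 and 15.5 to 23.3 CPM in KO NK cells. Of the neutrophil markers 7 of 7 tested were below 0 and 3 called lower (62.8 to 648 CPM in WT and 1.83 to 70.6 CPM in KO), and of the T cell markers 5 of 7 were, with 1 called higher and 0 lower (147 to 246 and 95.7 to 206 CPM). No marker was at 0 in all libraries. The 12 pan-NK markers were all above 0, 7 of them called higher, at 5610 to 9530 CPM in WT and 10800 to 12500 CPM in KO NK cells. Among the WT replicates, replicate 2 had the highest pan-NK sum (9530 CPM). It also had the lowest B cell (547 CPM), macrophage (2630 CPM), T cell, neutrophil and erythroid sums, but not the lowest platelet or pancreatic acinar sum. Members made up 6.62% of its counts, against 6.64% and 6.32% in WT replicates 1 and 3. The part of these markers in the ribosomal protein result was not tested.

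**Figure D2:**
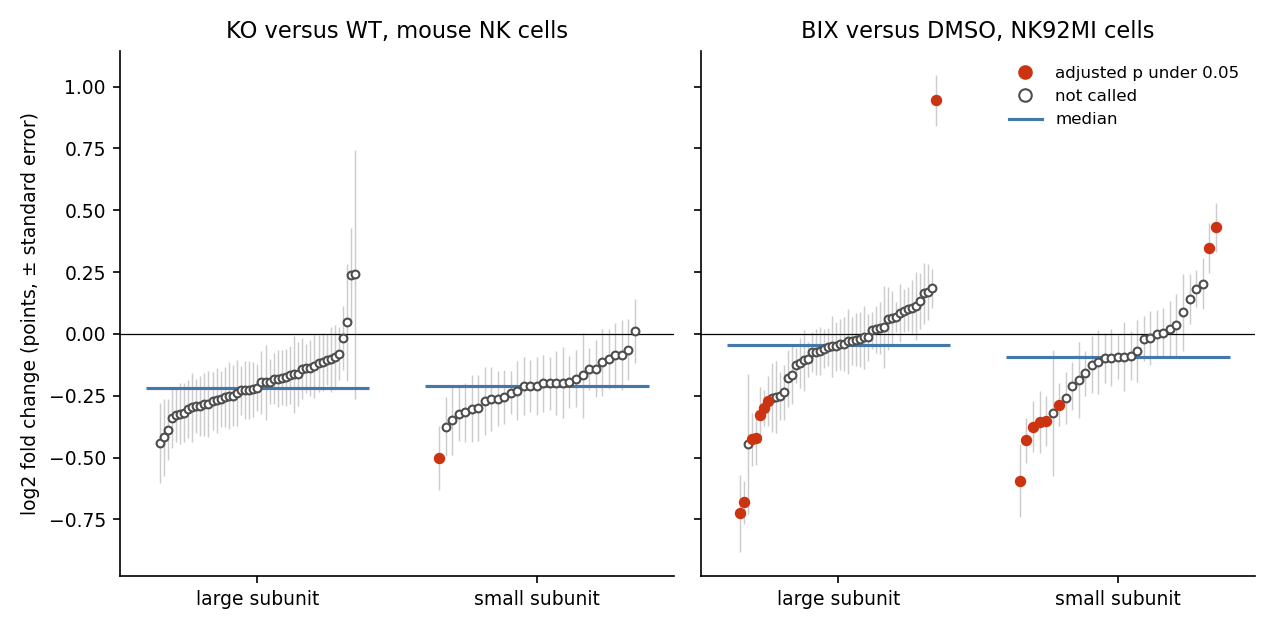
log2 fold change of each member (points, ± standard error) in KO versus WT NK cells and in BIX versus DMSO NK92MI cells, sorted within the large and the small subunit (x axis); filled points passed an adjusted p under 0.05 and blue lines give the medians. In mouse nearly all points lie below 0 with 1 call, and in NK92MI cells the points spread to both sides with 13 calls below and 3 above 0.

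The comparison of BIX-01294 with DMSO asks the same of EHMT2 inhibition in NK92MI cells, and here the members spread to both sides of 0. With BIX-01294, 13 members were called lower and 3 higher, and the remaining 65 were not called. Over all genes tested, 18.4% were called lower and 18.4% higher, so the members' share was 16.0% lower and 3.70% higher. The median log2 fold change was −0.06 over the members and −0.01 over all genes tested. The value was below 0 for 55 and above 0 for 26 members, against 51% and 49% of all genes. Without BIX replicate 2 it was below 0 for 26 of 81 members. At the thresholds of the study's methods (adjusted p under 0.01 and an absolute log2 fold change over 0.5), 1 member was higher, RPL22L1, and 3 were lower, RPL36A, RPLP0 and RPS28, against 6.24% and 5.43% of all genes. In mouse these thresholds called 0 members in edgeR, as they called 0% of all genes higher and 0% lower. DESeq2 called 1 mouse member (1.25%) lower and 0 higher at these thresholds, against 8.33% and 3% of all genes. With limma-voom 0 members were called, against 0% of all genes lower and 0.0227% higher. For 12 human members (14.8%) all BIX libraries lay below all DMSO libraries, against 23.9% of all genes.

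RPL22L1, the paralogue of the RNA-binding large subunit protein RPL22, showed the largest rise. It lies on chromosome 3 of GRCh38 (170864875 to 170870208, minus strand). Its levels were 30.6, 35.0 and 38.5 CPM with DMSO and 65.9, 59.0 and 75.5 CPM with BIX-01294. The groups were far apart relative to their spread (log2 fold change 0.94, standard error 0.10, adjusted p = 1.29e-05), and the call held under all 14 alternatives, with an adjusted p of at most 0.000271. RPL22 itself had 60.1, 61.6 and 66.5 CPM with DMSO and 60.2, 62.3 and 67.5 CPM with BIX-01294 (log2 fold change 0.01, adjusted p = 0.902). RPL22L1 thus took 33.7% to 36.6% of the counts of the pair with DMSO and 48.6% to 52.8% with BIX-01294. RPL22 protein is known to bind RPL22L1 mRNA and to hold down its level.

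RPS27L, the paralogue of RPS27 and a known p53 target gene, also rose. It had 32.6, 33.6 and 38.9 CPM with DMSO and 51.5, 41.8 and 48.4 CPM with BIX-01294 (log2 fold change 0.43, standard error 0.10, adjusted p = 0.00354). The groups did not overlap. RPS27 had 154, 207 and 218 CPM with DMSO and 187, 122 and 200 CPM with BIX-01294 (log2 fold change −0.19, adjusted p = 0.369), with overlapping groups. RPS27L took 13.4% to 17.5% of the pair's counts with DMSO and 19.5% to 25.5% with BIX-01294.

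RPS9, a small subunit protein at the mRNA entry channel, was the third member called higher. It had 291, 318 and 361 CPM with DMSO and 412, 350 and 474 CPM with BIX-01294 (log2 fold change 0.35, standard error 0.10, adjusted p = 0.0149). BIX replicate 2 overlapped with the DMSO libraries. Relative to the median member of the same library, RPS9 was higher in every BIX library than in every DMSO library. The mean log2 difference from that median was 0.34 ± 0.01 with BIX-01294 and −0.10 ± 0.04 with DMSO (SD, n = 3). On that scale, 20 of 81 members had every BIX library above every DMSO library, and 17 had every BIX library below. The share of all genes on that scale was not worked out. On the CPM scale, 24.1% of all genes had every BIX library above every DMSO library, and 23.9% had every BIX library below. The call was lost without CON-1 (adjusted p = 0.078) and without CON-3 (adjusted p = 0.0632).

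The remaining paralogues differed less. RPL7L1 (log2 fold change 0.07), RPL26L1 (0.13) and RPL39L (0.16) were not called, and neither were RPL7 (0.18, adjusted p = 0.0796), RPL26 (0.03) and RPL39 (0.06). RPL7 (adjusted p = 0.00241) and RPL39 (adjusted p = 0.0289) were called higher by edgeR without BIX replicate 2. RPL26 was counted at 5.0 to 6.61 CPM, below RPL26L1 (22.1 to 31.2 CPM). RPL26 shares 14.5% of its exonic bases with another annotated gene.

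**Figure D3:**
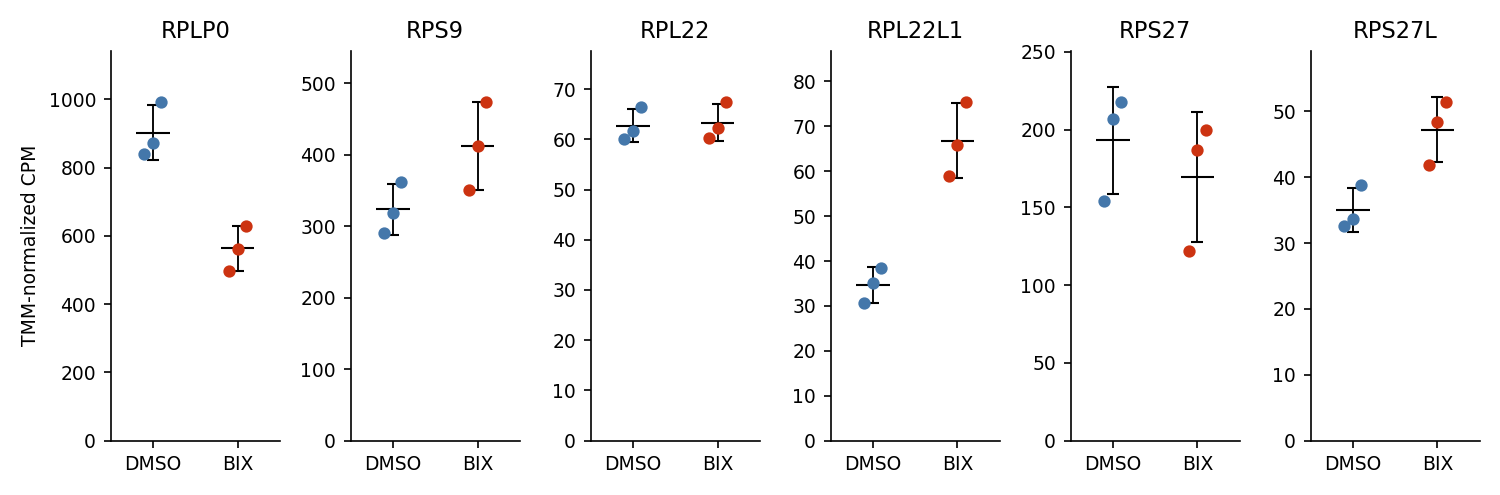
TMM-normalized CPM (y axes, from 0) of RPLP0, RPS9 and the paralogue pairs RPL22 and RPL22L1, and RPS27 and RPS27L, in the DMSO and BIX libraries of NK92MI cells; points are libraries and bars the mean ± SD, n = 3. RPLP0 fell, RPL22L1 and RPS27L rose with groups that do not overlap, and RPL22 stayed between 60.1 and 67.5 CPM in all 6 libraries.

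Among the 13 members called lower, RPLP0, the stalk base and a common reference gene in quantitative PCR, had the smallest adjusted p. It lies on chromosome 12 of GRCh38 (120196699 to 120201235, minus strand) and had 841, 873 and 993 CPM with DMSO and 562, 498 and 629 CPM with BIX-01294. All BIX libraries lay well below the DMSO libraries (log2 fold change −0.68, standard error 0.09, adjusted p = 4.24e-05), and the adjusted p was at most 0.000606 under the alternatives. The other stalk proteins were not called, RPLP1 at −0.03 (adjusted p = 0.880) and RPLP2 at −0.18 (adjusted p = 0.239). RPLP2 was called lower by edgeR without BIX replicate 3 (adjusted p = 0.00496). Relative to the median member of the same library, RPLP0 was at 1.38 ± 0.05 with DMSO and 0.80 ± 0.05 with BIX-01294 on the log2 scale (SD, n = 3).

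RPL36A, a large subunit protein encoded on chromosome X, had the lowest log2 fold change, −0.73 (adjusted p = 0.00238). It was counted at 13.0, 13.6 and 15.6 CPM with DMSO and 10.3, 6.53 and 8.68 CPM with BIX-01294, a low level for this family. Of its exonic bases 22.4% are shared with other annotated genes, and 9 pseudogenes named for it held 37.9% of the counts of gene and pseudogenes together. Summed with them, its log2 fold change was −0.52 and it was still called (adjusted p = 0.00342).

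RPS28 and RPS24, both small subunit proteins, fell as well. RPS28 had 88.9, 111 and 120 CPM with DMSO and 72.0, 52.1 and 87.7 CPM with BIX-01294 (log2 fold change −0.59, adjusted p = 0.0061). RPS24, whose gene is mutated in some patients with Diamond-Blackfan anemia, had 464, 506 and 535 CPM with DMSO and 381, 317 and 419 CPM with BIX-01294 (−0.43, adjusted p = 0.0021). In both genes the BIX libraries lay below every DMSO library, for RPS28 by a narrow margin. RPS28 shares 20.6% of its exonic bases with neighbours such as NDUFA7, and 0% with genes on the same strand.

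RPL4 at the exit tunnel had 1100, 1120 and 1210 CPM with DMSO and 923, 841 and 1030 CPM with BIX-01294 (log2 fold change −0.30, adjusted p = 0.00606). RPS25 was at −0.38 (adjusted p = 0.012), RPSA at −0.29 (adjusted p = 0.0183) and RPL10, which takes part in joining the subunits, at −0.33 (adjusted p = 0.0333). RPL10 shares 53.4% of its exonic bases with other annotated genes, and 2.93% with genes on the same strand. The calls of RPS25, RPSA and RPL10 were lost without CON-2 or without CON-3, that of RPL10 also without BIX replicate 1 or 2, and that of RPSA without BIX replicate 1. Further members called lower, named after their values were seen, were RPL27A (−0.43), RPL29 (−0.42), RPS3A (−0.35) and RPL28 (−0.27), with adjusted p between 0.00688 and 0.0484.

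Other members with known roles were not called. RPL3 (log2 fold change −0.07), RPL5 (−0.13), RPL11 (−0.07), RPL38 (0.11), RPS3 (−0.10), RPS6 (−0.16), RPS19 (0.04) and RPS27A (0.20) had adjusted p between 0.144 and 0.844. Without BIX replicate 2, edgeR called RPS27A (adjusted p = 0.00224) and RPL38 (adjusted p = 0.0198) higher. Without BIX replicate 3, it called RPS6 (adjusted p = 0.0107) and RPL5 (adjusted p = 0.0378) lower. RPL17 (1.06 to 2.13 CPM) and RPS10 (1.54 to 2.86 CPM) were counted at very low levels. Both share more than 30% of their exonic bases with other genes (35.5% and 31.5%), among them the readthrough genes RPL17-C18orf32 and RPS10-NUDT3.

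The medians of the large and the small subunit were close in human, too. The median log2 fold change was −0.05 over 50 large subunit members and −0.09 over 31 small subunit members. The log2 ratio of summed large to summed small subunit counts was 0.55, 0.57 and 0.58 with DMSO and 0.59, 0.62 and 0.55 with BIX-01294, with overlapping groups.

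Here too single libraries set the counts. BIX replicate 2 was the lowest of the 6 libraries for 69 of 81 members, and BIX replicate 3 the highest for 40. Without BIX replicate 2, 15 members (18.5%) were called higher and 10 (12.3%) lower, against 19.8% and 18.7% of all genes in that fit, and the median log2 fold change was 0.05. Without BIX replicate 3, 27 (33.3%) were called lower and 3 (3.7%) higher, against 18.4% and 19.1% of all genes, with a median of −0.16. Without CON-2 or CON-3, 7 members (8.64%) were called lower in each fit, against 13.7% and 13.9% of all genes. The summed NK markers were higher in every BIX library (10 of 12 above 0, with 7 called higher and 2 lower, 5910 to 6410 CPM with DMSO and 7710 to 9810 CPM with BIX-01294), and BIX replicate 2 had the lowest sum of the BIX libraries. Of 8 T cell markers 3 were in the table and 2 were tested, both above 0, summing to 585 to 605 and 607 to 700 CPM. Their part in the result was not tested.

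Genes around the ribosomal proteins were described with 7 lists. In KO NK cells the other TOP mRNAs were below 0 in 19 of 21 genes tested (median −0.20), with Npm1, a nucleolar chaperone (−0.45, adjusted p = 0.0433), and Hnrnpa1, an RNA-binding splicing factor (−0.35, adjusted p = 0.0445), called lower and 0 higher. The ribosome biogenesis factors were below 0 in 33 of 46 (median −0.14), with 1 called lower, again Npm1. The list of elongation factors and related genes (median −0.12, 6 of 8 below 0) had 0 calls by edgeR. So had the other ribosomal proteins with Rack1 (median −0.22, 4 of 4 below 0), the RNA polymerase I genes (median 0.06) and the mitochondrial ribosomal proteins (median −0.03, 46 of 76 below 0). Over all genes tested, 7.43% were called lower and 4.44% higher. Of 27 regulators, Mycn, a Myc family transcription factor, was called lower (from 6.93 ± 0.98 to 3.6 ± 0.42 CPM, SD, n = 3, log2 fold change −0.95, adjusted p = 0.0327), and Mxd4, a Myc antagonist, higher (0.56, adjusted p = 0.0239).

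In NK92MI cells the biogenesis factors were the list with the lowest median. Of 47 factors, 40 were below 0 and 17 were called lower with 0 higher (median −0.21), against 18.4% called lower over all genes. NOLC1, a nucleolar phosphoprotein, was at 299 ± 4.67 CPM with DMSO and 238 ± 1.42 CPM with BIX-01294 (log2 fold change −0.33, adjusted p = 0.000574), and WDR43, a small subunit processome factor, was at −0.36 (adjusted p = 0.000683). Of the 11 RNA polymerase I genes tested, 5 were lower and 2 higher, against 18.4% of all genes in each direction. TAF1C (−0.66, adjusted p = 2.32e-05) and POLR1B (−0.37, adjusted p = 0.000738) led the lower ones, and TAF1A (0.49, adjusted p = 0.0102) and RRN3 (0.17, adjusted p = 0.0446) were higher.

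The counts of the next lists stand against 18.4% of all genes called lower and 18.4% called higher. The list of elongation factors and related genes had 3 of 7 called lower. EEF2, which moves the ribosome along the mRNA, fell from 1510 ± 86.9 to 1070 ± 59.3 CPM (log2 fold change −0.50, adjusted p = 5.61e-05), and EEF1D was at −0.58 (adjusted p = 0.0139). The other TOP mRNAs, a list that holds these elongation factors too, had 5 of 21 lower, among them EIF3E (−0.40, adjusted p = 0.000513), and 1 higher, VIM (0.35, adjusted p = 0.00568). RACK1, a small subunit scaffold, was lower (−0.29, adjusted p = 0.0221), the only call among 4 genes tested of its list. Of 25 regulators 7 were lower, led by TSC2 (−0.54, adjusted p = 3.46e-05), an inhibitor of mTOR, and EIF4A1 (−0.94, adjusted p = 0.000289), and 3 were higher, led by LARP4 (0.39, adjusted p = 0.0013) and MAX (0.34, adjusted p = 0.00311). The mitochondrial ribosomal proteins went both ways, with 11 of 75 lower (MRPS27 −0.53, MRPL3 −0.52) and 6 higher (MRPS6 0.76, MRPL10 0.45), and a median of −0.07.

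**Figure D4:**
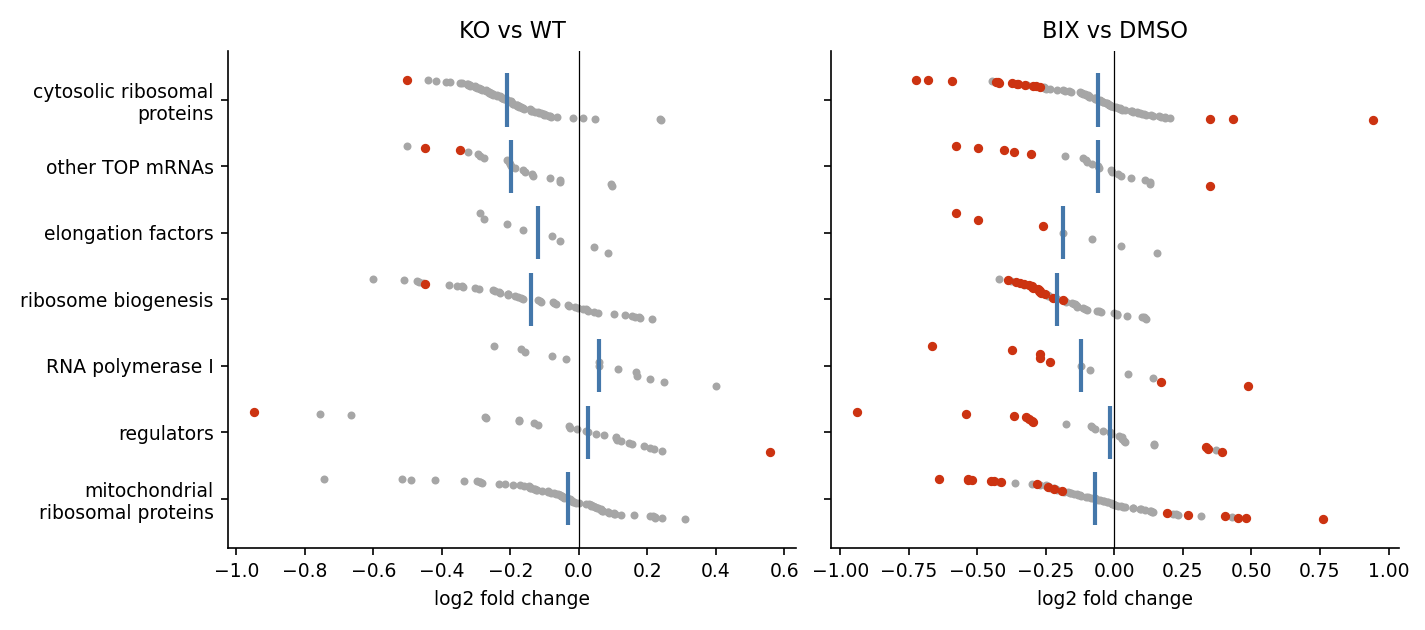
log2 fold change (x axis) of each tested gene in the cytosolic ribosomal protein family and 6 related lists (y axis, genes sorted within a list), for KO versus WT and BIX versus DMSO, leaving out the list of other ribosomal proteins with RACK1 (4 genes tested); red points passed an adjusted p under 0.05 and blue lines give the medians. Of the lists plotted, the family and the other TOP mRNAs have the lowest medians in KO NK cells (−0.21 and −0.20), and ribosome biogenesis has in NK92MI cells (−0.21).

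The 2 experiments share no samples, and 78 members were present in both tables. Of these, 53 were below 0 in both comparisons, 22 were below 0 in KO and above 0 with BIX-01294, 1 (RPL30) was above 0 in KO and below 0 with BIX-01294, and 2 were above 0 in both. RPLP0 was at −0.39 in KO NK cells and −0.68 with BIX-01294, and RPL22L1 was at −0.10 and 0.94. Whether the effects differ between the mouse and the human cells was not tested.

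**Figure D5:**
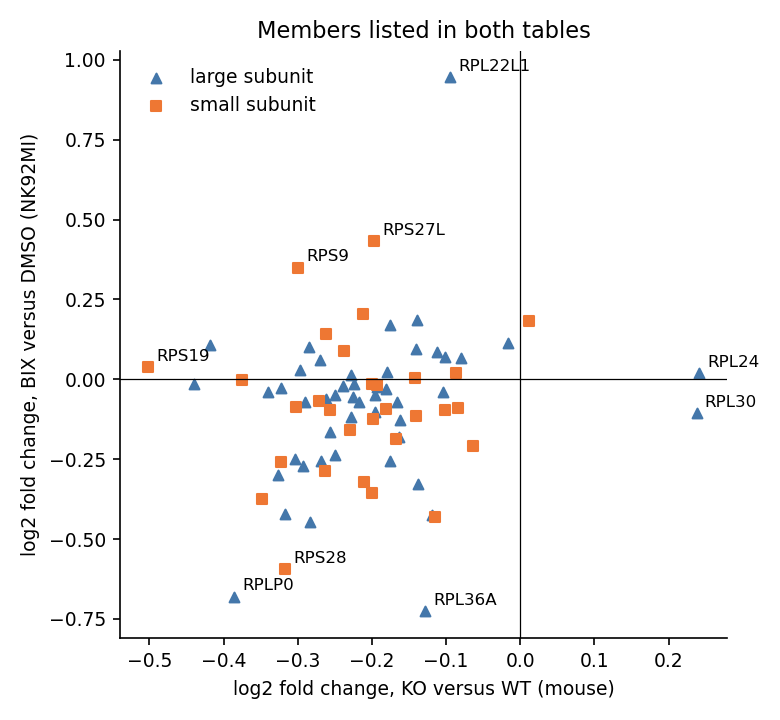
log2 fold change in KO versus WT mouse NK cells (x axis) against that in BIX versus DMSO NK92MI cells (y axis) for the 78 members listed in both tables, by subunit. The points lie left of 0 for all but 3 members and spread around 0 on the y axis, with RPL22L1 at 0.94 and RPLP0 at −0.68.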

How the data were processed

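Per the submitters' processing notes and the study's methods, the authors trimmed reads with fastp 0.23.4, aligned them with STAR 2.7.11b, allowing 2 mismatches, to GRCm38 or GRCh38, and counted them with HTSeq 2.0.3. The deposited values are whole-number read counts for each symbol, which the authors had not scaled. The annotation release and the strand setting are not given in the sources used here, so overlapping genes may lose or share reads. Gene positions and shared exonic bases were taken from GENCODE annotations of the same builds, and start sites from RefSeq.

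Each species was fitted separately in R 4.3.3 with edgeR 4.0.16 (TMM factors, filterByExpr, quasi-likelihood test, two-sided, Benjamini-Hochberg over all genes tested). DESeq2 1.42.0 and limma-voom (limma 3.58.1) were alternatives, beside other scalings and filters, a replicate block and each library left out. The procedure was tested on simulated data. At 16579469 to 37438868 counts per library, counting error is small except for members of a few CPM. Samples were grouped by their titles. Members and lists were chosen with earlier results of these data known. Lists were described by counts and medians, with no test over members. Genes named were the 5 called with most confidence on either side, the 5 largest and 5 smallest fold changes, members fixed by role, and paralogue pairs, and the 2 most confident calls on either side of each list. Summing members with the pseudogenes named for them was chosen after seeing the data. Columns of per-sample values left unused numbered 0. Some genes of the family and lists are counted but not reported by name here.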

Additional observations from a re-analysis of the deposited data

How the results depend on the processing

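In KO NK cells the count of members called higher was 0 under every alternative, against 0% to 10.7% of all genes. The count called lower (1) moved to 0 with library totals only (against 6.91% of all genes) and at the study's thresholds (against 0%). It moved to 15 with DESeq2 (18.8%, against 15.1% of all genes) and to 7 with the replicate block (8.75%, against 14.6%). With libraries scaled to the pan-NK genes it moved to 77 (96.2%, against 66.9% of all genes). It lay between 0 and 24 with each library left out, against 0% to 15.6% of all genes. Scaling to the pan-NK genes moved the median of all genes to −0.82 and that of the members to −1.03, and turned Rps23 to −0.83. The difference of the large and small subunit medians (−0.01) moved by less than the standard deviation of the same difference in log2 CPM between libraries (0.06) under all alternatives run. With the replicate block, Rplp0 (adjusted p = 0.0449), Rps26 (adjusted p = 0.0316), Rpl35 (adjusted p = 0.0309) and Rpl31 (adjusted p = 0.0352) were called lower by edgeR.

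The replicate numbers of the mouse labels were not taken to pair the samples, since the deviations of same-numbered KO and WT samples correlated at 0.28, 0.35 and −0.19 for replicates 1, 2 and 3, and not every sample correlated best with its own number. For NK92MI cells, no paired analysis was possible because the human control columns carry no replicate number of the labels.

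In NK92MI cells the counts moved from 3 to 1 higher and from 13 to 3 lower at the study's thresholds. Of all genes, 6.24% were higher and 5.43% lower at these thresholds. With each library left out, 2 to 15 members were higher and 7 to 27 lower. In those fits 14.1% to 19.8% of all genes were higher and 12.5% to 18.7% lower. Other scalings, filters and tools left 3 members (3.7%) higher and 13 to 15 (16% to 18.5%) lower. In those settings 12.9% to 19.8% of all genes were higher and 12% to 19.7% lower. Among the named members, no call in NK92MI cells reversed. Summed with pseudogenes, 3 members were higher and 13 lower, against 18.5% of all genes in each direction.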
